A study of Arabidopsis thaliana with 15 samples.

Results

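The second day in long days was compared with the first in hypocotyls of Arabidopsis thaliana, ecotype Col-0: 3 arrays of day 2 against 3 arrays of day 1. Every gene with a probe set annotated to it alone was described, which gave 16548 genes from 16722 such probe sets among the 38408 on the array. All plants were raised for 6 weeks in short days of 8 hours of light at 22 °C and then moved to long days of 16 hours of light, so plants of both days had already left short days. Each array holds total RNA of 1 pool of 8 hypocotyls. The other groups used are day 0, the last state in short days, and days 4 and 10 after the move, again with 3 pools each. No group carries a mutation, a transgene or a chemical treatment. No source used here gives the hour of harvest, so effects of hour and of day cannot be told apart.

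Arabidopsis is a facultative long-day plant. Leaves that perceive a long day produce the mobile signal FT, which reaches the shoot apex within days and turns it towards flowering. The hypocotyl, the stem below the cotyledons, thickens through a cambium that divides off xylem and phloem. Induction of flowering is known to be followed by a phase in which its xylem widens and forms fibres with thick walls of cellulose, xylan and lignin. The hypocotyl also passes sugars between shoot and root, and holds starch.

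The arrays of day 2 correlated with each other at r = 0.983 to 0.987 over all probe sets, those of day 1 at 0.987 to 0.990, and arrays of day 2 with arrays of day 1 at 0.979 to 0.983. The median intensity was 84.7 to 86.9 on day 2 and 85.2 to 88 on day 1. No array stood apart, and precision is limited by there being 3 arrays a day. Intensity is a normalised brightness with no unit, compared within a probe set and not between genes. Only the sums of cell type markers add it across genes. A gene was called where the adjusted p of limma's moderated test was below 0.05, and ± marks the standard error of a log2 difference, with n = 3 pools a day throughout. The p-values reflect how far pools of 1 day differ, since nothing in the labels says that pools came from separate sowings.

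Many genes moved by a little on the second day, and few by a lot. Of 16548 genes 1333 were called higher on day 2 (8.06%) and 1173 lower (7.09%), together 15.1%. The median size of the change was 1.33-fold among the risers and 1.36-fold among the genes that fell. At least a 2-fold rise was called for 37 genes (0.224%) and at least a 2-fold fall for 46 (0.278%). The 90% of genes in the middle of the distribution lay between -0.45 and 0.42 on the log2 scale, with a median of -0.01. Pools of the 2 days did not overlap for 5374 genes (32.5%), among them 1318 of the called risers and 1168 of those that fell. With pool 3 of day 2 omitted 861 genes were called higher and 807 lower, with pool 3 of day 1 omitted 863 higher and 757 lower, and a fit to the 6 arrays alone gave 586 higher and 596 lower. Over all probe sets 14.9% were called. For scale, 2.75% of genes were called higher and 2.76% lower on day 1 against day 0, a comparison that uses the same day 1 arrays. A direct test of the step to day 2 against the step to day 1 called 5.64% of genes, 2.8% with the second step above the first and 2.84% with it below. Over all probe sets this test called 1992, and 972, 1114 and 784 with pool 1, 2 or 3 of day 1 omitted and 1325 and 1294 with pool 2 or 3 of day 2 omitted.

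**Figure D1:**
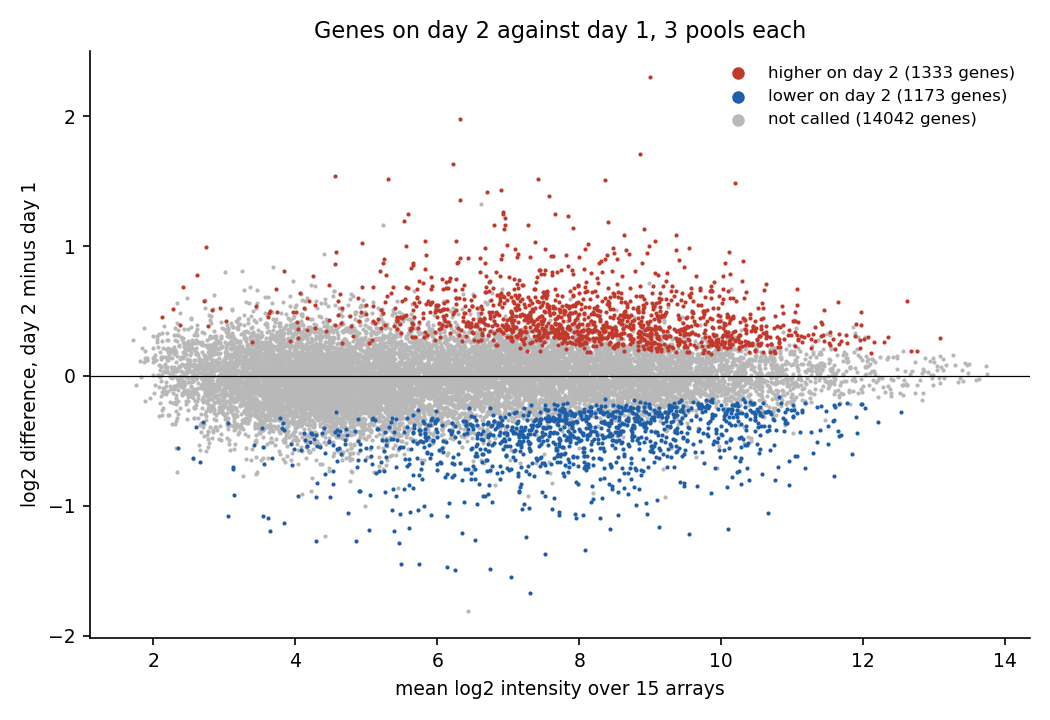
Each point is 1 of 16548 genes, with its mean log2 intensity over the 15 arrays across the page and its log2 difference, day 2 minus day 1, up the page. The 1333 genes called higher (red) and the 1173 called lower (blue) lie mostly within 1 log2 unit of 0, and few dim genes on the left were called.

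Calls depended on brightness. Among the dimmest of 4 equal groups of genes, with mean intensity up to 21.3, 1.86% were called, and among the brightest, from 273 up, 30.1%. A dim gene that was not called is thus not shown to have stayed level. In the brightest group 16.4% rose and 13.7% fell. Of the lists described later, it holds 7 of 11 autophagy, 3 of 4 xylan and 5 of 8 starch genes. It also holds 5 of the first 9 cell division genes.

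Genes that the reference table leaves without a symbol led both ends of the range, and for these only the locus tag is given. AT4G33040, a member of the CC-type glutaredoxin list described later, had an intensity of 114, 113 and 117 in the day 2 pools, against 33.5, 25.8 and 28.9 in the day 1 pools (3.93-fold higher, log2 difference 1.97 ± 0.11, adjusted p = 1.6e-05). All its day 2 pools lay more than 3 times above the day 1 pools' highest reading. AT1G22480 stood at 295, 339 and 296 in the day 2 pools, against 106, 80.4 and 99.2 in the day 1 pools (3.27-fold higher, log2 difference 1.71 ± 0.21, adjusted p = 0.000417). AT5G66816 had 233, 209 and 198 in the day 2 pools, against 66.8, 68.3 and 71.3 in the day 1 pools (3.1-fold higher, log2 difference 1.63 ± 0.12, adjusted p = 4.39e-05), after a rise on day 1 as well (log2 1.74 ± 0.12, adjusted p = 6.97e-06 against day 0). AT4G14020, at 255, 293 and 291 in the day 2 pools, against 104, 107 and 110.0 in the day 1 pools, was even within each day, with a standard error of 0.09 around its log2 difference of 1.38 (adjusted p = 3.31e-05). AT5G58390 was bright and rose 2.8-fold (log2 difference 1.49 ± 0.16, adjusted p = 0.00023). AT4G33550, AT1G80130, AT3G16530 and AT3G28420 completed the largest rises, between 1.42 and 1.54 on the log2 scale.

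The largest difference of all, in AT2G37870, rested on uneven pools. It had 1613, 1290.1 and 1861 in the day 2 pools, against 1104, 70.3 and 419.8 in the day 1 pools, a log2 difference of 2.30 ± 0.70 with an adjusted p of 0.0449. Day 1 thus spanned more than 10 times, and its highest pool came close to the lowest of day 2. It was not called once pool 1, 2 or 3 of day 2 or pool 3 of day 1 was omitted (adjusted p up to 0.123).

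Among genes with a symbol, SWEET4 (AT3G28007), which carries hexoses across the plasma membrane, gave 55, 51.1 and 88.8 in the day 2 pools, against 24.1, 24.5 and 18.1 in the day 1 pools (2.86-fold higher, log2 difference 1.52 ± 0.23, adjusted p = 0.00116). Replicate 3 was the highest on day 2 and the lowest on day 1. RALFL32 (AT4G14010), a secreted peptide of the family of rapid alkalinisation factors, read 569, 506 and 654 in the day 2 pools, against 189, 253 and 170.2 in the day 1 pools (2.85-fold higher, log2 difference 1.51 ± 0.14, adjusted p = 0.000121). GH3.3 (AT2G23170), an enzyme that joins the auxin indole-3-acetic acid to amino acids, gave 199, 163 and 172 in the day 2 pools, against 70.6, 75.2 and 62.7 in the day 1 pools (2.56-fold higher, log2 difference 1.35 ± 0.11, adjusted p = 7.96e-05). Each of these 3 genes more than doubled. Only called genes whose pools did not overlap between the days were ranked, so the gap between the days was set by that choice. FMO (AT1G12200), a flavin-containing monooxygenase, rose 2.12-fold (log2 difference 1.09 ± 0.13, adjusted p = 0.000346), and UGT87A2 (AT2G30140), a glycosyltransferase known to affect flowering time, 1.98-fold (log2 difference 0.99 ± 0.10, adjusted p = 0.000215). LSH5, of the plant family of LIGHT SENSITIVE HYPOCOTYLS proteins, rose 1.96-fold (log2 difference 0.97 ± 0.10, adjusted p = 0.000188). JRG21 (AT3G55970), an oxygenase that inactivates jasmonic acid, rose 1.98-fold (log2 difference 0.99 ± 0.20, adjusted p = 0.00665). The other rises of this rank were IRX15, described with the wall genes, HIS1-3, described with the abscisic acid genes, and LCR22, a small cysteine-rich peptide. LCR22 was dim, at 15.9, 7.71 and 10.3 in the day 2 pools, against 4.48, 6.02 and 5.93 in the day 1 pools (log2 difference 0.99 ± 0.25, adjusted p = 0.0198), and was not called once pool 1 of day 2 or pool 1 of day 1 was omitted (adjusted p up to 0.0798).

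On the other side, AT2G38430 had 88.9, 85.9 and 101 in the day 2 pools, against 349, 242 and 298 in the day 1 pools (3.19-fold lower, log2 difference -1.67 ± 0.20, adjusted p = 0.00033). AT5G44973 read 102, 89.2 and 103 in the day 2 pools, against 296, 281 and 279 in the day 1 pools (2.92-fold lower, log2 difference -1.55 ± 0.18, adjusted p = 0.00027). AT5G12930 gave 90.1, 88 and 92.1 in the day 2 pools, against 280.2, 233 and 244 in the day 1 pools (2.79-fold lower, log2 difference -1.48 ± 0.11, adjusted p = 4.65e-05). Falls too were ranked only among called genes whose pools did not overlap, so the gap between the days was set by that choice. In all 3 the day 2 pools stayed within a narrow band, but they reached it by different routes. AT5G44973 had also been lower on day 1 than on day 0 (log2 -1.24 ± 0.18, adjusted p = 0.00122), while AT5G12930 had been higher (log2 0.94 ± 0.11, adjusted p = 0.000242). AT2G47560, AT3G21950, AT4G12900, AT1G35625, AT1G79100 and AT1G33340 fell between 2.41-fold and 2.82-fold, as did AT4G15660 and AT4G15700 of the glutaredoxin list. AT1G24996 was in the same range at a log2 difference of -1.44 ± 0.35 (adjusted p = 0.017), and was not called once pool 1 or 3 of day 2 or pool 3 of day 1 was omitted (adjusted p up to 0.0706).

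The largest falls among genes with a symbol were as follows. NET3C (AT2G47920), an actin-binding protein at contacts of the endoplasmic reticulum with the plasma membrane, read 66.4, 77.5 and 67.2 in the day 2 pools, against 175, 151 and 161 in the day 1 pools (2.31-fold lower, log2 difference -1.21 ± 0.19, adjusted p = 0.00144). BRK1 (AT2G22640), a subunit of the SCAR/WAVE complex that starts actin branches, read 779.9, 859 and 821 in the day 2 pools, against 1623, 1363 and 1479 in the day 1 pools (1.81-fold lower, log2 difference -0.86 ± 0.09, adjusted p = 0.00023). ROT4 (AT2G36985) and RTFL7, small peptides of a family that restrains cell proliferation when overproduced, fell 2.03-fold (log2 difference -1.02 ± 0.22, adjusted p = 0.00932) and 1.96-fold (log2 difference -0.97 ± 0.16, adjusted p = 0.00215). SAE1A (AT4G24940), a subunit of the enzyme that activates the modifier SUMO, read 289.8, 308 and 333 in the day 2 pools, against 611, 605 and 636 in the day 1 pools (2-fold lower, log2 difference -1.0 ± 0.09, adjusted p = 0.000111). ALDH11A3 (AT2G24270), a non-phosphorylating glyceraldehyde-3-phosphate dehydrogenase, fell 2.1-fold (log2 difference -1.07 ± 0.22, adjusted p = 0.00593). BZIP24 (AT3G51960), a transcription factor of salt responses, fell 2.1-fold (log2 difference -1.07 ± 0.16, adjusted p = 0.00127), and CYP71B19 (AT3G26170), a cytochrome P450, 2.06-fold (log2 difference -1.04 ± 0.22, adjusted p = 0.00763). GH9B15 (AT4G23560), a glycosyl hydrolase of the endoglucanase family, was at -1.20 ± 0.30 (adjusted p = 0.0175) and was not called once pool 1 of day 2 or pool 2 of day 1 was omitted (adjusted p up to 0.0685).

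**Figure D2:**
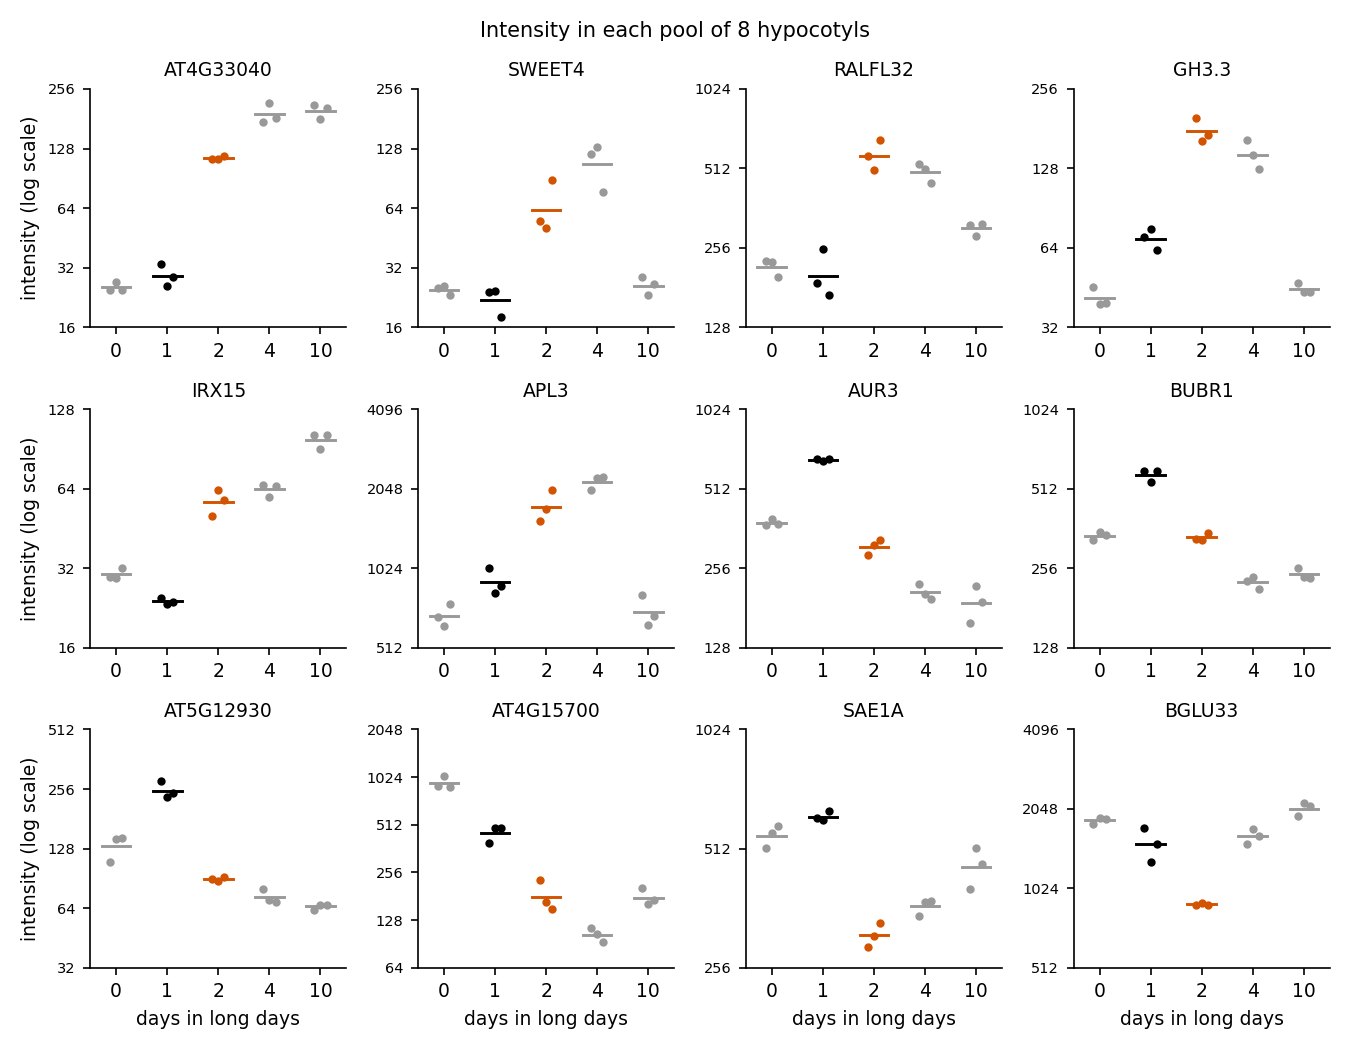
Points are the intensities of single pools (log scale, a separate axis for each gene) by days in long days, with day 2 in orange, day 1 in black and the other days in grey; bars are geometric means of 3 pools. Day 2 lies above day 1 in the first 6 panels and below it in the other 6, and AUR3, BUBR1 and AT5G12930 have their highest values on day 1.

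Among the wall lists, that of xylan, a main polysaccharide of secondary walls beside cellulose, had the highest median. Of 4 genes measured 3 rose and 0 fell, with a median log2 difference of 0.72, against 8.06% rising and a median of -0.01 over all genes. IRX15 (AT3G50220), a xylan protein whose loss makes xylem irregular, read 50.4, 63.4 and 57.8 in the day 2 pools, against 24.7, 23.4 and 23.8 in the day 1 pools (2.37-fold higher, log2 difference 1.25 ± 0.09, adjusted p = 4.39e-05). Its relative IRX15-L (AT5G67210) read 1774, 1839 and 1925 in the day 2 pools, against 1268, 1268 and 1211 in the day 1 pools (1.48-fold higher, log2 difference 0.56 ± 0.07, adjusted p = 0.000316). GUT2 (AT1G27440), better known as IRX10, which extends the xylan backbone, read 1005, 1127 and 1058 in the day 2 pools, against 584, 535 and 629 in the day 1 pools (1.83-fold higher, log2 difference 0.87 ± 0.08, adjusted p = 9.94e-05). All 3 kept their calls when any 1 pool was left out. The fourth, GUT1 or IRX10-L (AT5G61840), stood at 0.19 ± 0.07 (adjusted p = 0.0934). IRX15 had been lower on day 1 than on day 0 (log2 -0.34 ± 0.09, adjusted p = 0.0494), and its step to day 2 differed from its step to day 1 (log2 1.59 ± 0.15, adjusted p = 0.000238). In bulk tissue, more cells of a type and more RNA per cell cannot be told apart.

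Other wall lists moved little, and over all genes 8.06% rose and 7.09% fell. The share of expansins called, all of them rises, was 8.7%, near that of all genes. Among 23 expansins, which loosen walls, 2 rose and 0 fell (median -0.03): EXPA20 (AT4G38210) read 239, 227 and 241 in the day 2 pools, against 157, 161 and 158 in the day 1 pools (1.49-fold higher, log2 difference 0.57 ± 0.07, adjusted p = 0.000518), while EXPB2 (AT1G65680) at 0.49 ± 0.12 (adjusted p = 0.021) was not called once pool 3 of day 2 or pool 2 or 3 of day 1 was omitted (adjusted p up to 0.0882). Of 10 xyloglucan endotransglucosylases/hydrolases, which cut and rejoin xyloglucan, XTH32 (AT2G36870) rose (log2 difference 0.29 ± 0.07, adjusted p = 0.0113) and 0 fell. Of 6 pectin methylesterases, inhibitors and polygalacturonases, PME61 (AT3G59010) rose 1.88-fold (log2 difference 0.91 ± 0.20, adjusted p = 0.00826) and 0 fell. Of 6 lignin genes CCR2 (AT1G80820), a cinnamoyl-CoA reductase better known from defence, fell 1.63-fold (log2 difference -0.70 ± 0.14, adjusted p = 0.00529). HCT (AT5G48930), an acyltransferase of the monolignol pathway, was at 0.26 ± 0.07 (adjusted p = 0.0275) and was not called once pool 2 or 3 of day 2 or pool 2 or 3 of day 1 was omitted (adjusted p up to 0.101). Of 6 genes of the cambium and of vascular patterning 0 were called, and LHW (AT2G27230), a factor of vascular identity, came closest at 0.20 ± 0.06 (adjusted p = 0.0578). LHW passed with each array centred on its median (adjusted p = 0.0357).

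Of 8 starch genes measured 3 rose and 0 fell (median 0.15), against 8.06% rising and a median of -0.01 over all genes. The 3 that rose have a role in making starch. APL3 (AT4G39210), a large subunit of ADP-glucose pyrophosphorylase, which supplies the glucose for starch, read 1546, 1719 and 2023 in the day 2 pools, against 1023, 822 and 878 in the day 1 pools (1.94-fold higher, log2 difference 0.96 ± 0.13, adjusted p = 0.000653). APL4 (AT2G21590), another large subunit, read 845, 856 and 908 in the day 2 pools, against 562, 493 and 518 in the day 1 pools (1.66-fold higher, log2 difference 0.73 ± 0.10, adjusted p = 0.00081). SBE2.2 (AT5G03650), a branching enzyme, rose 1.3-fold (log2 difference 0.38 ± 0.08, adjusted p = 0.00765). APL4 and SBE2.2 had already risen on day 1 (log2 0.81 ± 0.10, adjusted p = 0.000503, and log2 0.84 ± 0.08, adjusted p = 7.72e-05). The breakdown genes measured, PWD (AT5G26570), AMY1 (AT4G25000) and DPE1 (AT5G64860), were at 0.09 ± 0.08, -0.15 ± 0.12 and -0.11 ± 0.07, with adjusted p of 0.487, 0.49 and 0.356. The other 2, AT4G24450 and QQS (AT3G30720), were at 0.04 ± 0.09 (adjusted p = 0.853) and 0.21 ± 0.13 (adjusted p = 0.338).

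Sugar transporters moved both ways, 3 up and 3 down of 21 (median -0.02), 28.6% called against 15.1% of all genes. Beside SWEET4, SWEET13 (AT5G50800), a sucrose exporter of veins, read 853, 952 and 1009 in the day 2 pools, against 642, 479 and 534 in the day 1 pools (1.71-fold higher, log2 difference 0.77 ± 0.14, adjusted p = 0.00324). The vacuolar sugar importers split: TMT2 (AT4G35300) rose (log2 difference 0.36 ± 0.06, adjusted p = 0.00264) and TMT1 (AT1G20840) fell (log2 difference -0.28 ± 0.06, adjusted p = 0.00682). SWEET2 (AT3G14770), which holds glucose in vacuoles, read 73.6, 68.1 and 80.5 in the day 2 pools, against 134, 95.2 and 141 in the day 1 pools (log2 difference -0.72 ± 0.17, adjusted p = 0.0132), and was not called once pool 2 of day 2 or pool 1 or 3 of day 1 was omitted (adjusted p up to 0.0595). SFP1 (AT5G27350), a sugar porter, was at -0.30 ± 0.08 (adjusted p = 0.0262), and was not called once pool 1 or 2 of day 2 or pool 1 or 3 of day 1 was omitted (adjusted p up to 0.102). TMT1 alone of the 3 was called once pool 2 of day 2 or pool 1 or 3 of day 1 was omitted.

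Several autophagy genes rose. Of 11 measured 5 rose and 0 fell, with a median of 0.28, against 8.06% rising and a median of -0.01 over all genes. The 5 that rose encode ATG8 proteins, small ubiquitin-like proteins that coat the autophagosome. APG8A, or ATG8A (AT4G21980), read 122, 138 and 159 in the day 2 pools, against 77.4, 88.8 and 74.5 in the day 1 pools (1.74-fold higher, log2 difference 0.80 ± 0.12, adjusted p = 0.00115). ATG8D (AT2G05630) read 149.9, 161 and 161 in the day 2 pools, against 119, 116 and 105 in the day 1 pools (1.39-fold higher, log2 difference 0.48 ± 0.07, adjusted p = 0.000812). ATG8B (AT4G04620) rose 1.34-fold (log2 difference 0.42 ± 0.06, adjusted p = 0.000996) and APG8H (AT3G15580) 1.46-fold (log2 difference 0.54 ± 0.08, adjusted p = 0.00123). ATG8H (AT3G06420) was at 0.53 ± 0.14 (adjusted p = 0.0249) and was not called once pool 2 or 3 of day 2 or pool 1, 2 or 3 of day 1 was omitted (adjusted p up to 0.0993). The 6 members that were not called lay between -0.09 and 0.28, among them ATG8C, ATG8E, ATG8F, ATG8G and ATG3. None of the 11 had been called on day 1 against day 0, where 5.51% of all genes were called. For 4 the step to day 2 was above the step to day 1, against 2.8% of all genes. For APG8A it was above by 0.97 in limma's test (adjusted p = 0.0197). With limma's test 4 to 6 members were called higher when 1 pool was left out. ATG8 genes are alike in sequence, and no source used here says whether their probe sets tell them apart.

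**Figure D3:**
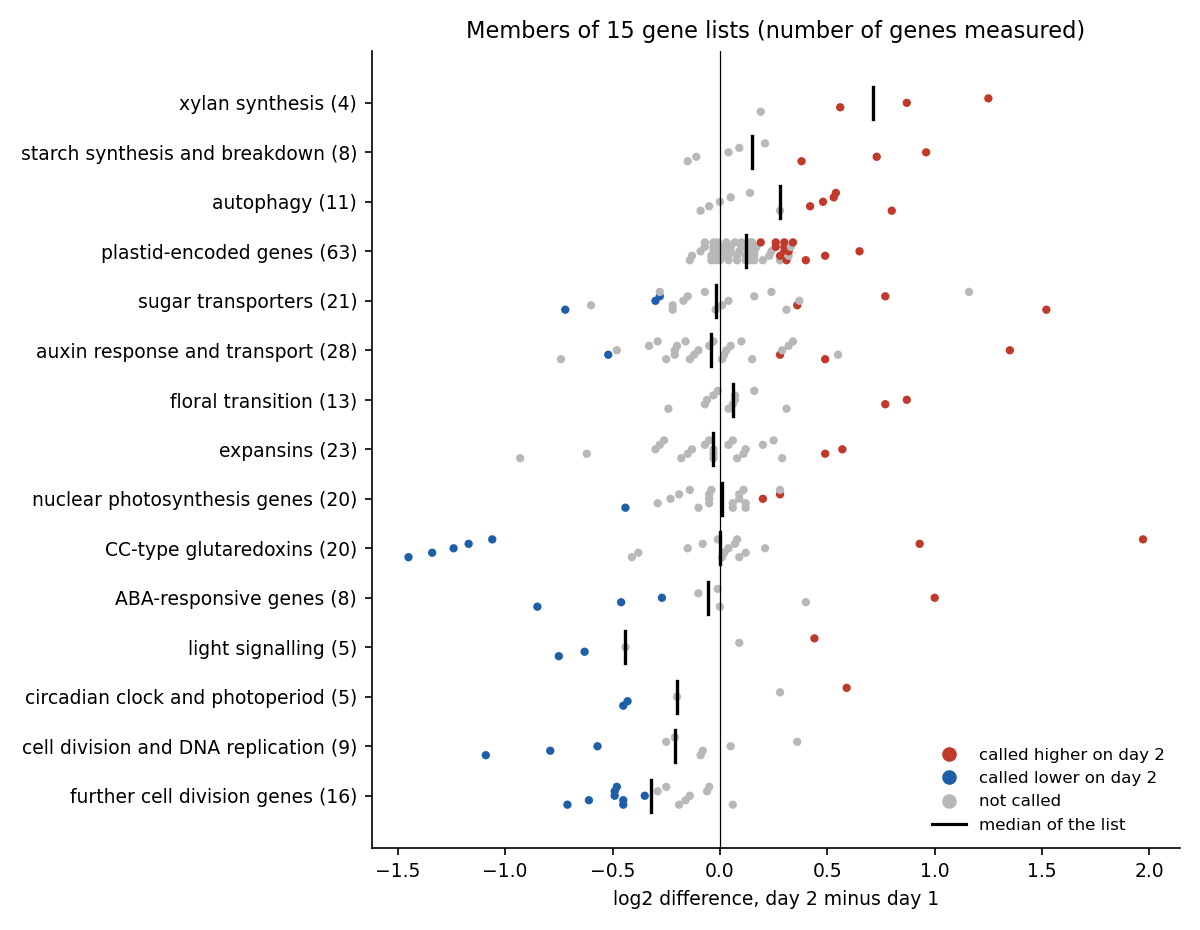
Each point is a measured gene of a list, placed at its log2 difference, day 2 minus day 1, with black bars for medians and the number of genes in brackets. All called points of the xylan, starch, autophagy and plastid lists lie on the right, all those of both cell division lists on the left, and the glutaredoxin list has called points at both ends.

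Some cell division genes fell. Of 9 genes of mitosis and DNA replication 3 fell and 0 rose (median -0.21), against 7.09% falling over all genes. On day 1 against day 0, which uses the same day 1 arrays, 4 of the 9 had risen, against 2.75% of all genes. AUR3 (AT2G45490), an Aurora kinase of mitosis, read 372, 393 and 376 on day 0, 663, 651 and 663 on day 1 and 287, 314 and 328 on day 2, a 2.13-fold fall in the last step (log2 difference -1.09 ± 0.10, adjusted p = 0.000121). BUBR1 (AT2G33560), of the spindle checkpoint, read 326, 349.5 and 341 on day 0, 596, 543 and 598 on day 1 and 329, 327 and 349 on day 2 (log2 difference -0.79 ± 0.07, adjusted p = 9.94e-05). Both had risen on day 1 against day 0 (AUR3 log2 0.79 ± 0.10, adjusted p = 0.000522, and BUBR1 log2 0.77 ± 0.07, adjusted p = 3.44e-05), so day 1 was the highest of the 3 days. PRL (AT4G02060), or MCM7, a subunit of the replication helicase, fell 1.49-fold (log2 difference -0.57 ± 0.09, adjusted p = 0.00203) with no call on day 1 (log2 0.06 ± 0.09, adjusted p = 0.842). AUR1 (AT4G32830) and AUR2 (AT2G25880), the other Aurora kinases, had risen on day 1 as well (AUR1 log2 0.96 ± 0.10, adjusted p = 0.000177, and AUR2 log2 0.94 ± 0.10, adjusted p = 0.000199) and were not called on day 2, at 0.05 ± 0.10 (adjusted p = 0.815) and -0.21 ± 0.10 (adjusted p = 0.216).

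A further 16 cell division genes were added after their values were seen, so their count supports no direction: 8 fell and 0 rose (median -0.32). TOPII (AT3G23890), the topoisomerase that untangles chromosomes, read 449.8, 477 and 481 on day 0, 748, 746 and 731 on day 1 and 459, 446 and 459 on day 2 (log2 difference -0.71 ± 0.08, adjusted p = 0.000215). BUB3.1 (AT3G19590), of the spindle checkpoint, fell 1.4-fold (log2 difference -0.49 ± 0.07, adjusted p = 0.00131), and TSK (AT3G18730), or TONSOKU, which guards replicated DNA, 1.52-fold (log2 difference -0.61 ± 0.09, adjusted p = 0.000875). KINESIN-12B (AT3G23670) of the phragmoplast, Haspin (AT1G09450), a histone kinase, TUBG1 (AT3G61650), a gamma-tubulin, and ICU2 (AT5G67100), the catalytic subunit of DNA polymerase alpha, fell between 1.28-fold and 1.41-fold. ATSMC2 (AT3G47460), a condensin subunit, was at -0.45 ± 0.11 (adjusted p = 0.0184) and was not called once pool 2 or 3 of day 2 or pool 1 or 2 of day 1 was omitted (adjusted p up to 0.0617). Many of these genes are long: 4 of the first 9 and 9 of the added 16 are in the longest sixth of genes, where 14.1% of all genes fell. Among the shorter members 2 of 5 and 2 of 7 fell. The part of gene length in the result was not tested.

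Gene length moved with the calls over all genes. Among 2746 genes in the shortest sixth, up to 929 bases in the reference table, 4.37% were called higher and 2.73% lower. In the fourth sixth, of 1910 to 2449 bases, the shares were 11.3% and 7.2%, and in the longest, of 3306 bases and more, 5.55% and 14.1%. In that longest sixth the median deviation of a gene from its own mean was -0.02, -0.024 and -0.029 on the log2 scale in the day 2 pools, against 0.017, 0.009 and 0.019 in the day 1 pools. Spearman's rho of length with the log2 difference was -0.065 over 16442 genes, which are not independent. On day 1 against day 0 the longest sixth had 128 genes higher and 92 lower. No source used here gives values of RNA quality.

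**Figure D4:**
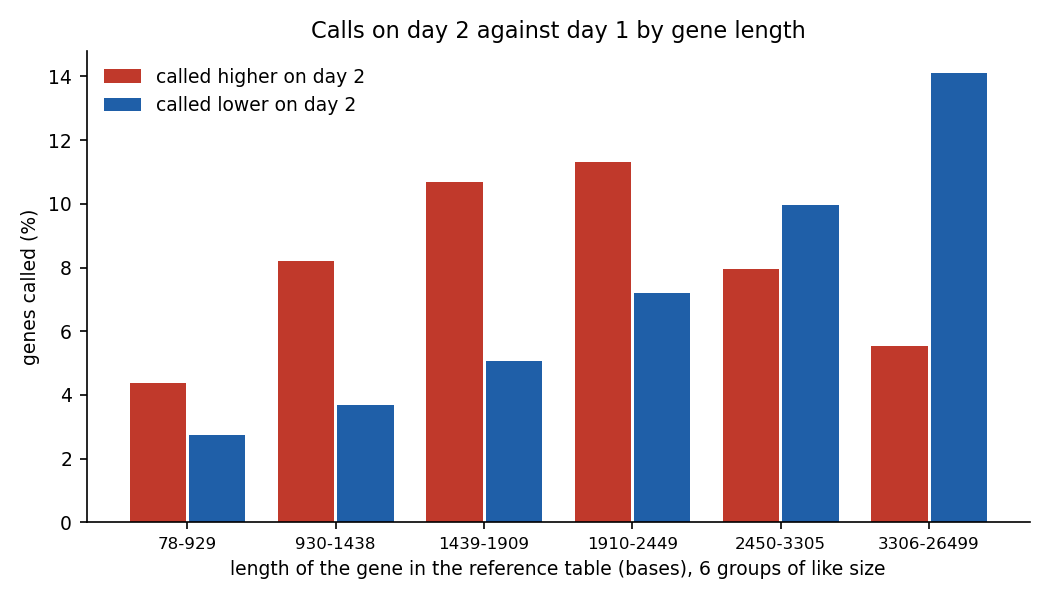
Bars give the share of genes (in %, axis from 0) called higher (red) and lower (blue) on day 2 in 6 equal groups of genes by length in the reference table. Falls run up from 2.73% in the shortest group to 14.1% in the longest, and rises peak at 11.3% in the fourth.

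CC-type glutaredoxins, small redox proteins that act with TGA transcription factors, had called members in both directions. The 20 genes measured are a list by locus tag of which the reference table names 3 (GRX480, ROXY1 and ROXY2). Of the 20, 2 rose and 5 fell, against 8.06% and 7.09% of all genes, and the median of the 20 was 0.00. Beside AT4G33040, AT2G47870 rose, at 77.9, 69.5 and 108 in the day 2 pools, against 46.7, 38.9 and 46.5 in the day 1 pools (log2 difference 0.93 ± 0.15, adjusted p = 0.00156). Those that fell lay between -1.45 and -1.06. AT4G15700 read 229, 166 and 151 in the day 2 pools, against 393, 486 and 488 in the day 1 pools (log2 difference -1.34 ± 0.16, adjusted p = 0.000295), and AT1G03020 read 159, 166 and 173 in the day 2 pools, against 386, 419 and 367 in the day 1 pools (log2 difference -1.24 ± 0.15, adjusted p = 0.00032). AT4G15680 read 31.7, 29 and 36 in the day 2 pools, against 58.5, 60 and 85.6 in the day 1 pools (log2 difference -1.06 ± 0.15, adjusted p = 0.000718). Groups were apart in each, and AT1G03020, AT4G15660, AT4G15680 and AT4G15700 had been lower on day 1 than on day 0 as well, for example AT4G15680 (log2 -1.35 ± 0.15, adjusted p = 0.000168). AT4G15660, AT4G15670, AT4G15680 and AT4G15700 have nearby locus tags, and no source used here says whether their probe sets tell such close copies apart. AT4G15670 (-1.17 ± 0.34, adjusted p = 0.0365) was not called once pool 1 of day 2 or pool 1, 2 or 3 of day 1 was omitted (adjusted p up to 0.1).

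Flowering genes that moved had begun to move on day 1. Of 13 genes of the floral transition 2 rose and 0 fell (median 0.06), 15.4% called either way against 15.1% of all genes. AGL24 (AT4G24540), which promotes flowering as a MADS-box factor, had 60.7, 60.8 and 70.4 on day 0, 124, 112 and 121 on day 1 and 209.6, 185 and 213 on day 2 (1.7-fold higher, log2 difference 0.77 ± 0.09, adjusted p = 0.000263 against day 1). ATC (AT2G27550), a relative of TERMINAL FLOWER that inhibits flowering, read 280.1, 191 and 221 on day 0, 544, 529 and 433 on day 1 and 867, 885 and 996 on day 2 (1.83-fold higher, log2 difference 0.87 ± 0.19, adjusted p = 0.00822 against day 1). Both had risen on day 1 against day 0 (AGL24 log2 0.90 ± 0.09, adjusted p = 8.44e-05, and ATC log2 1.13 ± 0.19, adjusted p = 0.00322), no pools overlapped between these days, and both calls on day 2 held with any 1 pool left out. The flowering genes FD, SMZ, SNZ, FPA, FY and LD, with AGL18, AGL19, AGL42, AGL71 and AGL72, were not called.

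Light and clock genes were few and went both ways, and over all genes 8.06% rose and 7.09% fell. Of 5 in light signalling 1 rose and 2 fell. HYH (AT3G17609), a bZIP factor that acts with HY5 in response to light, read 19, 19.7 and 21.7 on day 0, 36.9, 40.4 and 31.8 on day 1 and 24.6, 19.3 and 20.7 on day 2 (1.69-fold lower, log2 difference -0.75 ± 0.14, adjusted p = 0.00448 against day 1), after a rise on day 1 (log2 0.85 ± 0.14, adjusted p = 0.00387 against day 0). SPT (AT4G36930), a bHLH factor that restrains growth, fell 1.54-fold (log2 difference -0.63 ± 0.10, adjusted p = 0.00155), and HAT2 (AT5G47370), a homeodomain factor induced by auxin and shade, rose 1.36-fold (log2 difference 0.44 ± 0.09, adjusted p = 0.00604). Of 5 clock and photoperiod genes 1 rose and 2 fell. FIO1 (AT2G21070), an RNA methyltransferase whose loss lengthens the circadian period, fell 1.35-fold (log2 difference -0.43 ± 0.08, adjusted p = 0.00284), and AT5G52660, of the same list, 1.37-fold (log2 difference -0.45 ± 0.07, adjusted p = 0.00203). COR27 (AT5G42900), a clock-linked cold gene, was at 0.59 ± 0.16 (adjusted p = 0.0301), and was not called once pool 2 or 3 of day 2 or pool 2 or 3 of day 1 was omitted (adjusted p up to 0.105). GI (AT1G22770), which links clock and day length, read 519, 627 and 726 in the day 2 pools, against 542, 517 and 468 in the day 1 pools with no call (adjusted p = 0.12). It had fallen on day 1 against day 0 (log2 -1.80 ± 0.11, adjusted p = 4.21e-06), and its step to day 2 was above that step (log2 2.08 ± 0.19, adjusted p = 0.000189).

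Some hormone genes were called. Of 28 genes of auxin response and transport 3 rose and 1 fell (median -0.04). The share called, 14.3%, was near the 15.1% of all genes. Beside GH3.3, AT1G19840 was at 0.49 ± 0.11 (adjusted p = 0.0125) and was not called once pool 1 of day 1 was omitted (adjusted p up to 0.0547). GH3.9 (AT2G47750), of the same enzyme family as GH3.3, read 92.6, 91.9 and 91 in the day 2 pools, against 128, 131 and 136 in the day 1 pools (1.43-fold lower, log2 difference -0.52 ± 0.07, adjusted p = 0.000521). BIM1 (AT5G08130), a bHLH transcription factor, was at 0.28 ± 0.07 (adjusted p = 0.0185) and was not called once pool 3 of day 2 or pool 2 or 3 of day 1 was omitted (adjusted p up to 0.0779). Of 3 ethylene genes EIN3 (AT3G20770), the main transcription factor of the pathway, rose 1.19-fold (log2 difference 0.25 ± 0.05, adjusted p = 0.00769). Of 6 gibberellin and 10 cytokinin genes 0 were called by limma, against 15.1% of all genes, and lists this small say little. Of 16 jasmonate genes PDF1.4 (AT1G19610), a defensin, fell 1.56-fold (log2 difference -0.65 ± 0.14, adjusted p = 0.0105).

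Genes that respond to abscisic acid (ABA), the hormone of drought, split 1 up and 3 down of 8 (median -0.06). Over all genes 8.06% rose and 7.09% fell. In the fit of the 6 arrays 0 of these 8 genes were called higher and 0 lower, and with the replicate block 0 higher and 2 lower. COR47 (AT1G20440), a dehydrin, read 208, 159 and 120.5 in the day 2 pools, against 255, 297 and 308 in the day 1 pools (1.8-fold lower, log2 difference -0.85 ± 0.19, adjusted p = 0.0101), and COR15A (AT2G42540), which protects chloroplast membranes in the cold, 2899, 3132 and 3676 in the day 2 pools, against 4996, 3990.1 and 4356 in the day 1 pools (1.38-fold lower, log2 difference -0.46 ± 0.10, adjusted p = 0.011). On day 1 against day 0 COR47 had fallen by 1.95 and COR15A had fallen by 0.93 on the log2 scale. KIN2 (AT5G15970) was at -0.27 ± 0.08 (adjusted p = 0.0328) and was not called once pool 1 or 2 of day 2 or pool 3 of day 1 was omitted (adjusted p up to 0.13). HIS1-3 (AT2G18050), a linker histone induced by drought, read 36.4, 43.8 and 53.9 in the day 2 pools, against 34.6, 13.7 and 22.5 in the day 1 pools (log2 difference 1.00 ± 0.27, adjusted p = 0.0285). Its day 1 pools were uneven, and it was not called once pool 2 or 3 of day 2 or pool 2 or 3 of day 1 was omitted (adjusted p up to 0.107). BGLU33 (AT2G32860), a glucosidase that frees ABA from its glucose ester in vacuoles, read 889, 901 and 882 in the day 2 pools, against 1736, 1292 and 1514 in the day 1 pools (1.69-fold lower, log2 difference -0.76 ± 0.10, adjusted p = 0.000459), with day 2 pools nearly equal. It was not called on day 4 against day 0 (log2 -0.20 ± 0.10, adjusted p = 0.15), and day 2 is its lowest day in the plot of pools by day.

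Some plastid-encoded genes rose slightly, and none was called lower. Of 63 measured 13 rose and 0 fell, with a median of 0.12, and the called rises lay between 0.19 and 0.65. The share, 20.6%, stands beside 8.06% of all genes and 16.4% of the brightest of the 4 groups by intensity, to which all 63 belong, so it is near the share of genes of like brightness. Plastid genes are read as long shared transcripts, so members are not independent. Of the 10 subunits of the NDH complex, which carries electrons around photosystem I, 5 rose. ndhJ had an intensity of 4611, 4549 and 4713 in the day 2 pools, against 3280.3, 3364 and 3228 in the day 1 pools (1.41-fold higher, log2 difference 0.49 ± 0.06, adjusted p = 0.000552), and ndhG of 3672, 3446 and 3558 in the day 2 pools, against 2899.7, 2882 and 2759.9 in the day 1 pools (1.25-fold higher, log2 difference 0.32 ± 0.06, adjusted p = 0.00385). With 1 pool left out 10 or 11 plastid genes were called, and 5 in the fit of the 6 arrays. Of 20 nuclear photosynthesis genes 2 rose and 1 fell (median 0.01), the fall being PORB (AT4G27440), which makes chlorophyllide in light (log2 difference -0.44 ± 0.10, adjusted p = 0.0117). The rises, PSBW and ATPC1, were below 0.3 on the log2 scale and neither was called under every omission of 1 pool, with adjusted p up to 0.144. Of 16 mitochondrion-encoded genes 1 rose and 1 fell (12.5% called), and neither was called under every omission of 1 pool.

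Metabolism and nutrient genes gave a few clear changes, and over all genes 8.06% rose and 7.09% fell. APS4 (AT5G43780), an ATP sulfurylase that activates sulfate, read 334, 343 and 351 in the day 2 pools, against 182, 189 and 168 in the day 1 pools (1.91-fold higher, log2 difference 0.93 ± 0.10, adjusted p = 0.00023), the 1 riser of 4 sulfur genes. It had been lower on day 1 than on day 0 (log2 -0.44 ± 0.10, adjusted p = 0.0263). AT5MAT (AT3G29590), which adds malonate to anthocyanins, read 1266, 1163 and 1219 in the day 2 pools, against 784, 701 and 769 in the day 1 pools (1.62-fold higher, log2 difference 0.70 ± 0.07, adjusted p = 0.000147), and CHIL (AT5G05270), a helper of chalcone synthase, rose 1.44-fold (log2 difference 0.53 ± 0.12, adjusted p = 0.0132). They are the 2 risers among 8 flavonoid genes, and DFR (AT5G42800), which commits flavonoids to anthocyanin, was at -0.03 ± 0.06 (adjusted p = 0.811). UGT78D1 (AT1G30530), a flavonol glycosyltransferase, was at -0.29 ± 0.07 (adjusted p = 0.0227) and was not called once pool 2 or 3 of day 2 or pool 1 or 3 of day 1 was omitted (adjusted p up to 0.0836). GTR2 (AT5G62680), a transporter of glucosinolates, fell 1.37-fold (log2 difference -0.46 ± 0.06, adjusted p = 0.000691), the 1 change among 5 glucosinolate genes. bHLH115 (AT1G51070) and ILR3 (AT5G54680), transcription factors of iron supply, rose 1.28-fold (log2 difference 0.35 ± 0.06, adjusted p = 0.00333) and 1.22-fold (log2 difference 0.28 ± 0.06, adjusted p = 0.00624), and BGLU42 (AT5G36890), a glucosidase known from iron-starved roots, fell 1.49-fold (log2 difference -0.58 ± 0.10, adjusted p = 0.00244). Of 7 histone genes 2 rose and 0 fell (HIS1-3 and HTB1), and of 9 dark-induced genes ETFALPHA rose and ETFQO fell, but none of these 4 was called under every omission of 1 pool. Of 14 nitrate, ammonium and amino acid genes 1 rose and 1 fell. Of 6 genes that handle monolignol glucosides, a list added after values were seen, 0 rose and 2 fell (BGLU45 and BGLU47). Of 13 ER body genes and 6 heat shock genes 0 were called by limma at the threshold.

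Genes that share the stem of their symbol were grouped after the values were seen, 58 families of 5 or more genes. In 5 families at least 3 members rose and 0 fell, and in 2 at least 3 fell and 0 rose, and over all genes 8.06% rose and 7.09% fell. Of 9 NRPB genes, subunits of RNA polymerase II, 3 rose: NRPB6A (AT5G51940) read 459.8, 501 and 571 in the day 2 pools, against 287, 351 and 321 in the day 1 pools (log2 difference 0.67 ± 0.09, adjusted p = 0.000609), NRPB8B (AT3G59600) rose 1.34-fold (log2 difference 0.42 ± 0.06, adjusted p = 0.000888), and NRPB10 was at 0.40 ± 0.10 and was not called once pool 3 of day 2 or pool 1 or 3 of day 1 was omitted (adjusted p up to 0.0713). The NRPB members not called lay between -0.40 (NRPB9B) and 0.18 (NRPB12), and the median of the 9 was 0.14. Of 6 LSM genes, ring proteins of splicing and RNA decay, 3 rose, with LSM6A (AT3G59810) at 0.29 ± 0.05 (adjusted p = 0.00409) and LSM3B (AT1G76860) at 0.44 ± 0.10 (adjusted p = 0.0111). The third, LSM1A, was not called once pool 3 of day 2 or pool 1 of day 1 was omitted (adjusted p up to 0.0566). Of 6 MSRB genes, which repair oxidised methionine, 3 with nearby locus tags rose, MSRB3 (AT4G04800) at 408, 432 and 422 in the day 2 pools, against 293, 292 and 272 in the day 1 pools (log2 difference 0.56 ± 0.07, adjusted p = 0.000472). MSRB4 and MSRB5 were not called once pool 3 of either day was omitted, which left MSRB3. The ATG genes were covered above. Of 32 SCPL genes 3 rose, a share near that of all genes, and 1 was called once pool 2 or 3 of day 2 or pool 1 or 3 of day 1 was omitted.

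Of 22 BGLU genes, family 1 beta-glucosidases, 4 fell: BGLU33, BGLU42, BGLU47 (AT4G21760), which read 1909, 1943 and 1875 in the day 2 pools, against 2976, 2584 and 3118 in the day 1 pools (1.51-fold lower, log2 difference -0.60 ± 0.09, adjusted p = 0.00158), and BGLU45. BGLU45 (AT1G61810), which frees monolignols from their glucosides, was at -0.60 ± 0.15 (adjusted p = 0.0172) and was not called once pool 3 of day 2 or pool 1 or 3 of day 1 was omitted (adjusted p up to 0.0696). Of the 22, 13 are in the longest sixth of genes, where 14.1% of all genes fell, and they hold 3 of the 4 falls. Of 12 UBP genes, ubiquitin proteases, 5 fell, with UBP19 (AT2G24640) at 434, 447 and 423 in the day 2 pools, against 653, 612 and 627 in the day 1 pools (1.45-fold lower, log2 difference -0.54 ± 0.09, adjusted p = 0.00222) and UBP21 (AT5G46740) at -0.43 ± 0.08 (adjusted p = 0.00512). With pool 3 of day 1 omitted 3 UBP genes were called. Of the 12, 10 are in the longest sixth of genes, and all 5 that fell are among them. The part of length in either family was not tested.

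Markers of other cell types were few among the measured genes and none was called by limma outside green tissue. The sum of 3 root hair markers was 66.4 to 75.5 on day 2 and 68.7 to 74.9 on day 1, and that of 3 markers of companion cells and sieve elements was 173 to 214 on day 2 and 169 to 179.7 on day 1. For 4 markers of guard cells and the stomatal lineage the sums were 78.5 to 103 on day 2 and 68.0 to 92.4 on day 1. Of these 10 genes 6 are among the dimmest of the 4 groups by brightness, SPCH, FMA and MUTE among them. All 4 floral organ markers (UFO, SPL, NUB and AMS) are there too, with sums of 72.5 to 91.6 on day 2 and 76.5 to 79.6 on day 1. The 20 photosynthesis genes, taken as markers of green tissue, summed to 7860.4 to 9481 on day 2 and 7752 to 8989.6 on day 1, ranges that overlap. A sum is carried by its brightest probe sets, so overlap does not show that each marker stayed level.

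Genes that moved on the second day mostly still stood apart from the short-day state on day 4. The comparison of day 4 with day 0 shares no array with that of day 2 with day 1. Of the 1333 genes that rose on day 2, 933 (70.0%) were called higher on day 4 than on day 0 and 30 (2.25%) lower, against 13.2% and 12.5% of all genes. Of the 1173 that fell, 796 (67.9%) were lower on day 4 than on day 0 and 9 (0.767%) higher. On day 10 against day 0 the shares were 57.8% higher and 9.38% lower among the risers, and 49.1% lower and 5.54% higher among those that fell, against 17.2% higher and 14% lower of all genes. Between days 4 and 10 the balance turned: 24.8% of the risers were lower on day 10 than on day 4 and 11% higher, and 28.5% of the genes that had fallen were higher and 12% lower, with 9.34% of all genes higher and 8.43% lower.

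**Figure D5:**
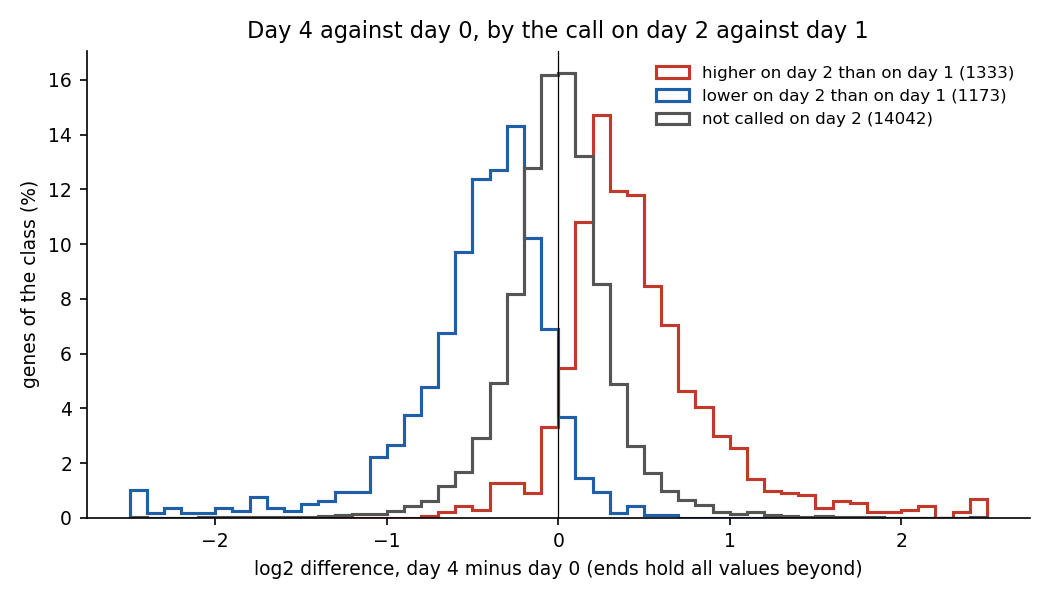
Lines are histograms of the log2 difference, day 4 minus day 0, in % of each class, for genes called higher on day 2 against day 1 (red), called lower (blue) and not called (grey). The red class centres at 0.39, the blue at -0.39 and the grey at 0.00.

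Named genes differ in this later course. GUT2 and IRX15 went on to higher values on day 10, at log2 1.73 ± 0.08, adjusted p = 1.23e-08 and log2 1.69 ± 0.09, adjusted p = 4.62e-08 against day 0. AT1G22480 read 1304, 1159 and 1521 on day 4 and 4223, 3570.0 and 4242 on day 10, more than 10 times its day 2 values by the end. SWEET4, GH3.3 and APL3 were back near day 0 on day 10, at log2 0.07, 0.12 and 0.05 (adjusted p = 0.86, 0.501 and 0.837). SWEET13, ATC and AT5MAT, which rose on day 2, ended below day 0 on day 10 on the log2 scale: SWEET13 fell by 2.48 (adjusted p = 8.58e-08). ATC fell by 2.18 (adjusted p = 3.08e-06) and AT5MAT fell by 3.82 (adjusted p = 1.26e-11). Of the cell division genes that fell on day 2, all 3 of the first list and 7 of the 8 added ones, all but Haspin, were called lower on day 4 than on day 0, AUR3 at log2 -0.88 ± 0.10, adjusted p = 6.65e-05 and PRL at log2 -0.90 ± 0.09, adjusted p = 3.33e-05.

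The place of a gene on its chromosome gave little. The next measured gene was called the same way for 9.64% of genes that rose, against 8.06% of all genes called higher, and for 9.24% of those that fell, against 7.09% of all genes called lower. Runs of 3 or more neighbours called the same way numbered 7 upward and 11 downward, the longest with 5 genes. Among the 20927 probe sets with no annotated gene 14.7% were called, 0.397% higher and 1.05% lower by at least 2-fold.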

How the data were processed

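Hypocotyl RNA from pools of Col-0 plants was hybridised to 15 arrays, 3 pools a day. The deposited values are normalised intensities on a linear scale, 1 per probe set, and their log2 was taken for the fit. Per the submitters' processing notes the authors used RMA and Partek, with versions not given in the sources used here. RMA summarises each probe set and equalises the arrays' distributions, so a shift shared by all genes cannot be seen. Samples were grouped by their labels. limma 3.58.1 in R 4.3.3 was fitted to all 38408 probe sets and 15 arrays with 1 mean per day, and p-values were adjusted by Benjamini-Hochberg over all probe sets, with calls at an adjusted p below 0.05. Printed pool intensities are on the linear scale, as read. A gene took its brightest probe set by mean among those annotated to it alone. The text names the 12 largest called rises and falls, the 10 largest with a symbol, and members of gene lists. The largest were taken only from genes whose day 2 pools did not overlap the day 1 pools. Other genes were chosen after their values were seen. The members and lists were chosen with earlier results of these data known. The test was checked on simulated data. Alternatives were other scalings, limma-trend, a filter on dim probe sets, the 6 arrays alone, a replicate block and each pool left out. No label says whether replicate numbers pair the pools. Same-numbered pools of days 1 and 2 deviated with r of -0.108 to -0.019, and pools of different number with r of -0.0471 to 0.0896. With 3 pools a day these values cannot settle it.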

Additional observations from a re-analysis of the deposited data

Results flagged for a closer look

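For 933 genes the step to day 2 differed from the step to day 1 by a direct test of that difference (limma, adjusted p below 0.05), 463 with the second step above the first and 470 with it below. Both steps use the day 1 arrays, with opposite sign. Over all probe sets this test called 1992, and 784 with pool 3 of day 1 omitted, 972 without pool 1 and 1114 without pool 2 of that day, and 1325 and 1294 without pool 2 or 3 of day 2. AUR3 and AT5G12930, higher on day 1 and lower on day 2, are among those below, and IRX15 and GI among those above. In data outside the comparison of genes, 219 of 20927 probe sets with no annotated gene were lower on day 2 by at least 2-fold (1.05%) and 83 were higher (0.397%), against 0.278% and 0.224% of genes. What these probe sets measure is not known here.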

How the results depend on the processing

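Day 2 against day 1 gave 5723 called probe sets, and 3748 to 4741 with 1 pool left out, 2898 with the 6 arrays alone, 5707 after cyclic loess and 6478 with limma-trend. Genes called higher numbered 861 to 1118 and lower 757 to 937 with 1 pool left out, and 586 and 596 with the 6 arrays alone; fewer arrays leave fewer degrees of freedom. Calls over the gene lists came to 91, and to 56 with the 6 arrays. The step contrast called 1992 probe sets, and 784 to 1707 with 1 pool left out; it needs day 0 and could not be fitted to 6 arrays. Rises made up 60.3% of called genes after median-centring, against 53.2%. Whether replicate numbers pair the pools is not known. The replicate block gave 5002 probe sets, 1148 genes higher and 1022 lower, and 5 of 110 called named genes lost their call. Of those 110, 70 were called under every alternative run, 35 were not with the 6 arrays, and 0 reversed. Low intensity limits what can be called among dim genes.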
